A study of Sus scrofa with 20 samples.

Results

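OAS1, OAS2, MX1, XAF1 and PARP14 are 5 genes that vertebrate cells switch on in response to interferon, and their mRNA levels were followed here through 20 RNA sequencing libraries of pig epicardial fat. They were chosen by name, from earlier results of these same libraries in which interferon-responsive genes stood out, so their differences between the diet groups are given as a description and not as a test. All 5 were found among the 22861 genes of the exon read table and again among the 10157 genes of a second, RefSeq-based table, and all 5 passed the filter on low counts that left 11366 genes for testing.

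Interferons are secreted proteins that cells release on sensing viral nucleic acid or during inflammation. Type I interferons bind the receptor made of IFNAR1 and IFNAR2, the receptor-bound kinases JAK1 and TYK2 phosphorylate STAT proteins, and these join IRF9 to bind the promoters of interferon-stimulated genes. The products of those genes interfere with successive steps of viral growth, and in tissue without infection their mRNAs serve as a readout of interferon exposure. OAS1 and OAS2 make 2′-5′-linked oligoadenylate when they bind double-stranded RNA, which sets off the decay of RNA in the cell. MX1 is a dynamin-like GTPase that blocks viral ribonucleoproteins. XAF1 binds the apoptosis inhibitor XIAP and favours cell death. PARP14 is a mono-ADP-ribosyltransferase with macrodomains.

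The tissue is fat from beneath the visceral pericardium of Ossabaw miniature pigs, a breed prone to obesity and metabolic syndrome when overfed. The study randomized boars and gilts to a Heart Healthy diet, with plenty of unsaturated fat, whole grain, fruit and vegetables, or a Western diet, with refined grain, cholesterol and more saturated fat, each with or without the cholesterol-lowering drug atorvastatin. Of these arms, 6 libraries came from the Heart Healthy diet without drug (HHD), 6 from the Heart Healthy diet with statin (HHD+S) and 8 from pigs labelled atherogenic with statin, read here as the Western diet with atorvastatin (WD+S). The Western diet without drug is not analysed here, so the statin can be compared under the healthy diet and the diets under the statin, while WD+S against HHD changes both at once. The labels give no dose, duration, age or sex for any animal, and if libraries were not from separate animals their spread would be partly technical.

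The libraries held between 2749337 and 6543337 exon-mapped reads. Library names carry a number, 1 or 2, called pool 1 and pool 2 here, and a code, C1, C2R, C3 or C4, and the sources used here do not say what either stands for. Pool 1 held 4 libraries of each group, while pool 2 held 2 of HHD, 2 of HHD+S and 4 of WD+S. HHD replicates 3 and 5 carried both XIST reads (1437 and 3396) and Y-linked reads (813 and 147), which a library from a single animal would not be expected to hold together, so differences from HHD are also given without them. Levels are given as counts-per-million values (CPM), the exon reads of a gene relative to the library's scaled total, and gene lengths do not enter them. Of 12 adipocyte markers, all 12 were detected, with summed levels from 12440 to 28390 CPM over the 20 libraries. Of these, 6 were in the exon read table and 6 in the second table alone, whose gene reads were scaled separately. The sums given below for T and natural killer, macrophage, plasmacytoid dendritic and neural markers also mix CPM of both tables. In bulk tissue, a change in the number of cells that express a gene and a change in its RNA per cell cannot be told apart.

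The 5 genes had a narrower range in the 6 HHD libraries than in either statin group. OAS1 in HHD ranged from 31.9 to 71.5 CPM with a median of 55.5 CPM, against 66.6 to 456.2 CPM with a median of 104.3 CPM in HHD+S. In WD+S, OAS1 ranged from 72.1 to 482.8 CPM with a median of 165.5 CPM. All 8 WD+S libraries therefore lay above all 6 HHD libraries for this synthetase, 5 of the 6 HHD+S libraries did, and WD+S and HHD+S overlapped. OAS2, the larger synthetase, ranged from 21.9 to 64.3 CPM in HHD, with a median of 41.5 CPM. Its range was 44.3 to 576.9 CPM in HHD+S, with a median of 74.5 CPM, and 53.2 to 626.6 CPM in WD+S, with a median of 133.4 CPM. The groups overlapped for OAS2: 4 of 6 HHD+S and 7 of 8 WD+S libraries exceeded the highest HHD library.

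MX1, the GTPase, showed the same wide spread in the statin groups. It ranged from 52.9 to 87.7 CPM in HHD, with a median of 72.2 CPM. In HHD+S its range was 73.9 to 756.7 CPM with a median of 119.9 CPM, and in WD+S 90.7 to 969.3 CPM with a median of 185.4 CPM. The lowest WD+S library stood just above the highest HHD library, and 4 of 6 HHD+S libraries were above it.

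XAF1 was the only member for which all 6 HHD+S libraries lay above all 6 HHD libraries, and the gap was narrow, from 16.0 CPM in the highest HHD library to 16.3 CPM in the lowest HHD+S library. HHD values ran from 9.07 to 16.0 CPM around a median of 12.2 CPM, and HHD+S values from 16.3 to 186.4 CPM around a median of 20.8 CPM. WD+S values ran from 14.3 to 197.6 CPM around a median of 38.9 CPM, and 7 of the 8 were above every HHD library. PARP14 ran from 7.22 to 11.3 CPM in HHD around a median of 10.1 CPM. In HHD+S its median was 10.6 CPM, within the HHD range, although the group reached from 5.95 to 76.2 CPM. In WD+S it ran from 11.6 to 91.0 CPM around a median of 22.4 CPM, above HHD in all 8 libraries.

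**Figure D1:**
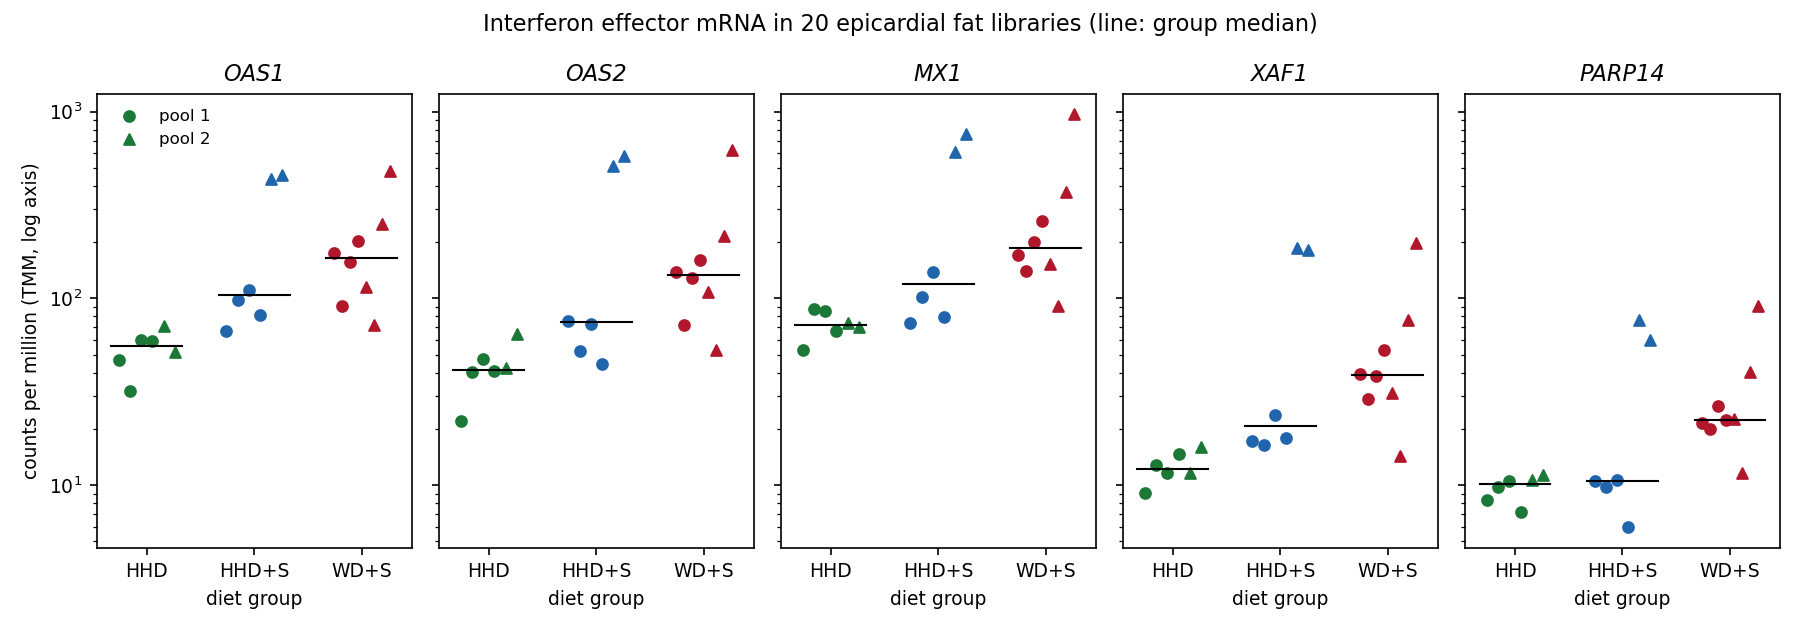
CPM of each gene (log axis) in the 20 libraries, by diet group, with circles for pool 1, triangles for pool 2 and a line at the group median. HHD libraries sit close together, while 2 pool 2 libraries of HHD+S and 1 of WD+S stand far above the rest of their groups for all 5 genes.

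Between HHD+S and HHD, which differ by atorvastatin under the healthy diet, the group means of all 5 genes were higher with the drug. MX1 averaged 292.6 ± 305.8 CPM (SD, n = 6) in HHD+S and 72.9 ± 12.8 CPM (SD, n = 6) in HHD. OAS2 averaged 222.3 ± 250.5 CPM against 42.8 ± 13.7 CPM, and PARP14 28.8 ± 30.8 CPM against 9.63 ± 1.57 CPM. The SD in HHD+S was close to or above the mean for OAS2, MX1 and PARP14, so a few libraries carried much of each mean. The edgeR log2 fold change was 2.38 (SE 0.66) for OAS2, 2.55 (SE 0.68) for XAF1 and 1.59 (SE 0.57) for PARP14, with OAS1 at 1.96 (SE 0.49) and MX1 at 2.00 (SE 0.60). Their median was 2.00, beside -0.01 over all 11366 genes. Medians differed less than means: the ratio of the HHD+S to the HHD median was 1.88 for OAS1 and 1.05 for PARP14, with the other members between them.

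With edgeR's quasi-likelihood test and Benjamini-Hochberg adjustment over 11366 genes, 0 of the 5 genes and 0 of all genes (0%) had an adjusted p below 0.05 in HHD+S against HHD. All 5 members were among the 960 genes (8.45%) with an unadjusted p below 0.05, and DESeq2 called 10 genes (0.088%), with 0 members among them. Groups did not overlap for 1 member, XAF1, in a direction that 0.0616% of all genes shared, and all 5 members had a log2 fold change of at least 1, as did 0.897% of all genes. Since the members were chosen with this contrast known, nothing is read from those shares. Without HHD replicates 3 and 5 the 5 log2 fold changes lay between 1.66 for PARP14 and 2.49 for XAF1.

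Between WD+S and HHD, which differ by diet and drug together, the means were again higher in the statin group for all 5 genes. OAS1 averaged 192.7 ± 131.1 CPM (SD, n = 8) in WD+S and 53.5 ± 13.5 CPM (SD, n = 6) in HHD. XAF1 averaged 59.9 ± 58.6 CPM against 12.6 ± 2.47 CPM, and MX1 294.2 ± 286.1 CPM against 72.9 ± 12.8 CPM. The log2 fold change was 1.85 (SE 0.47) for OAS1, 2.14 (SE 0.63) for OAS2, 2.01 (SE 0.58) for MX1, 2.25 (SE 0.65) for XAF1 and 1.74 (SE 0.54) for PARP14. Here the medians moved with the means, and the ratio of the WD+S to the HHD median lay between 2.21 for PARP14 and 3.22 for OAS2. This contrast uses the same 6 HHD libraries as the statin contrast, so the likeness of the 2 sets of fold changes is in part built in.

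By the same edgeR test, 0 of the 5 genes and 0 of all genes (0%) had an adjusted p below 0.05 in WD+S against HHD. All 5 members were among the 1299 genes (11.4%) with an unadjusted p below 0.05, and DESeq2 called 69 genes (0.607%), of which OAS1 was the only member. Groups did not overlap for 3 members, OAS1, MX1 and PARP14, as for 0.132% of all genes in that direction, and all 5 members had a log2 fold change of at least 1, as did 1.51% of all genes. These shares too describe genes picked for the pattern. Without HHD replicates 3 and 5 the log2 fold changes lay between 1.82 for PARP14 and 2.19 for XAF1.

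Between WD+S and HHD+S, the diet contrast under statin, the 5 genes had nearly equal means and overlapping ranges. The log2 fold changes were -0.11 (SE 0.44) for OAS1, -0.24 (SE 0.58) for OAS2, 0.01 (SE 0.53) for MX1, -0.30 (SE 0.58) for XAF1 and 0.15 (SE 0.50) for PARP14, each smaller than its SE. The medians were nevertheless higher in WD+S for all 5, by a ratio of 1.55 for MX1 to 2.12 for PARP14. edgeR called 0 members and 0 genes (0%), 988 genes (8.69%) and 0 members had an unadjusted p below 0.05, and DESeq2 called 10 genes (0.088%) with 0 members among them. In 0 members did all WD+S libraries exceed all HHD+S libraries, as 0.0704% of genes did, and 0 members had a log2 fold change of at least 1, against 1.16% of genes. By median the order of the groups was WD+S, then HHD+S, then HHD for all 5 genes, and neither WD+S and HHD+S nor, XAF1 aside, HHD+S and HHD were separate in their ranges.

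The 4 libraries with the highest levels were the same for every member. WD+S replicate 8 was first for all 5, HHD+S replicates 5 and 6 followed in either order, and WD+S replicate 7 came next. All 4 belong to pool 2. WD+S replicates 7 and 8 and HHD+S replicate 5 held Y-linked reads, and HHD+S replicate 6 held XIST reads. On the log2 scale, averaged over the 5 genes, WD+S replicate 8 stood 3.60 and WD+S replicate 7 2.31 above the HHD median. HHD+S replicate 5 stood 3.30 and HHD+S replicate 6 3.34 above the HHD median. The next library, WD+S replicate 4, stood 1.78 above it, and the remaining statin libraries between 0.11 (HHD+S replicate 4) and 1.53 (WD+S replicate 3). HHD libraries lay between -0.46 and 0.21. From the highest to the lowest of the 20 libraries, OAS2 spanned 28.6-fold, XAF1 21.8-fold, MX1 18.3-fold, PARP14 15.3-fold and OAS1 15.1-fold.

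The pools gave different sizes for the statin contrast. In pool 1, OAS1 was 49.4 ± 13.1 CPM in HHD and 89.1 ± 19.3 CPM in HHD+S (SD, n = 4 each), and PARP14 was 8.94 ± 1.46 CPM and 9.22 ± 2.21 CPM. In pool 2 the 2 HHD+S libraries had 434.5 and 456.2 CPM of OAS1 against 51.9 and 71.5 CPM in the 2 HHD libraries, and 59.7 and 76.2 CPM of PARP14 against 10.7 and 11.3 CPM. Fitted within pool 1, the HHD+S minus HHD log2 fold changes were 0.85 (SE 0.25) for OAS1, 0.71 (SE 0.27) for OAS2, 0.43 (SE 0.24) for MX1, 0.64 (SE 0.22) for XAF1 and 0.06 (SE 0.23) for PARP14. Within pool 2 they were 2.85 (SE 0.74), 3.35 (SE 0.95), 3.23 (SE 0.93), 3.73 (SE 1.02) and 2.62 (SE 0.79) for the same genes in the same order. The direction held in both pools, and for PARP14 the pool 1 value was smaller than its SE. HHD replicate 3, in pool 1, and HHD replicate 5, in pool 2, carried both XIST and Y-linked reads and were kept in these fits. In pool 1 all 4 HHD+S libraries lay above all 4 HHD libraries for OAS1 and XAF1, as for 1.52% of genes, and in pool 2 both lay above both for all 5, as for 22.3% of genes.

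For WD+S against HHD the log2 fold changes were positive in both pools and smaller in pool 1 for all 5 genes. Pool 1 gave log2 fold changes of 1.64 (SE 0.26) for OAS1, 1.71 (SE 0.28) for OAS2, 1.38 (SE 0.24) for MX1, 1.70 (SE 0.22) for XAF1 and 1.32 (SE 0.22) for PARP14, and pool 2 gave 1.90, 2.23, 2.45, 2.54 and 1.91. In pool 2 the 2 groups overlapped for OAS2 and XAF1. There edgeR called 0 of the 5 members, the lowest adjusted p among them being 0.912. In pool 1 the 4 WD+S libraries lay above the 4 HHD libraries for all 5 genes, as for 2.15% of genes. edgeR within pool 1 called 14 genes (0.123%) at an adjusted p below 0.05, all higher in WD+S, and all 5 members were among them, a count that cannot stand as evidence for genes chosen on these libraries. The other 9 were RSAD2, the RNA sensors RIG-I and IFIH1, and DDX60, IFIT3, IFI44, IFIT1, CMPK2 and ZNFX1, named after their values were seen. The diet contrast under statin had opposite signs in the 2 pools: in pool 1 WD+S was above HHD+S by 0.79 for OAS1 to 1.26 for PARP14 on the log2 scale, and in pool 2 it was below, from -0.71 for PARP14 to -1.20 for XAF1. In pool 1 the 2 groups did not overlap for MX1, XAF1 and PARP14, as for 1.65% of genes, and edgeR called 0 members and 1 gene (0.00878%). A difference between pools was not tested, and pool 2 held 2 HHD+S libraries.

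**Figure D2:**
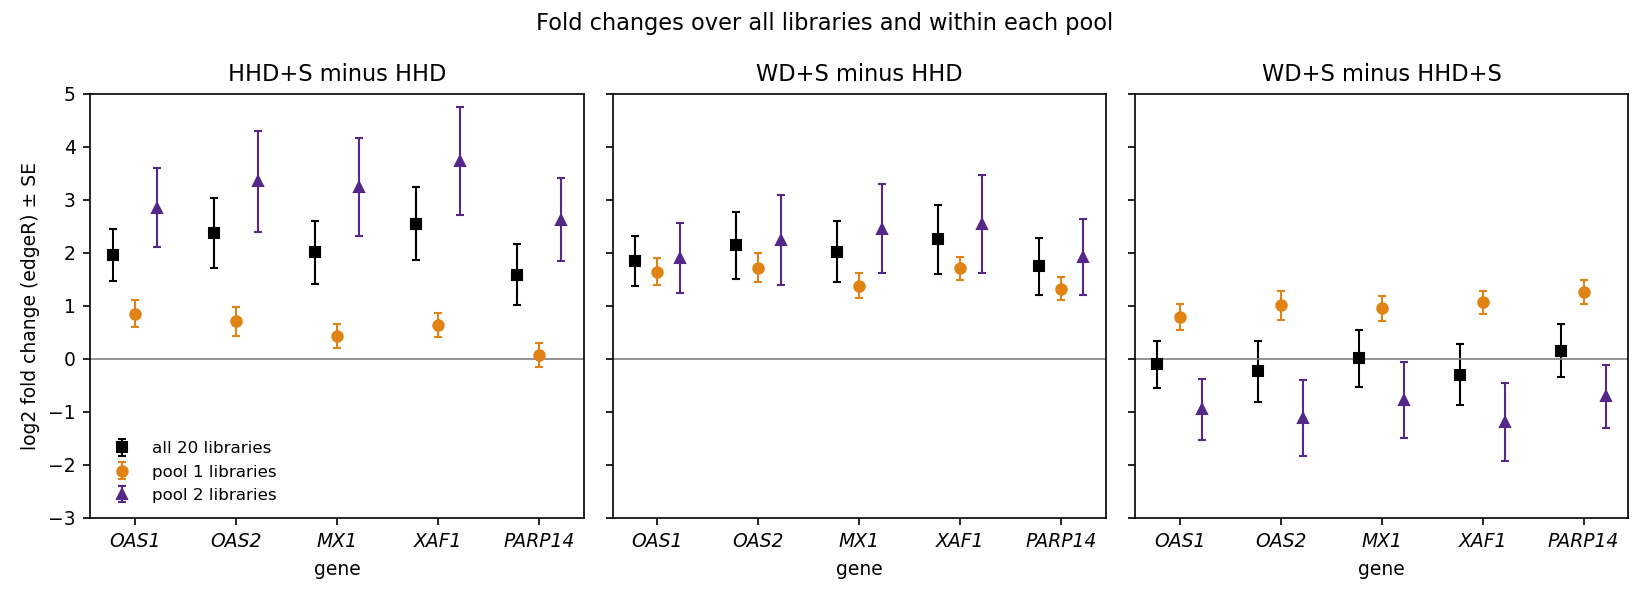
Log2 fold change of each gene (y axis, bars show the SE) for 3 comparisons, fitted on all 20 libraries (squares), pool 1 (circles) and pool 2 (triangles). The HHD+S minus HHD values are lower in pool 1 than in pool 2, the WD+S minus HHD values are positive in both pools and lower in pool 1, and the WD+S minus HHD+S values fall on opposite sides of 0.

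Within the codes of the library names, groups can be compared 4 times for the statin contrast. All HHD+S libraries of a code exceeded all its HHD libraries in 4 of 4 codes for OAS1 and XAF1, in 3 of 4 for OAS2 and MX1, and in 2 of 4 for PARP14. Each code held only 1 or 2 libraries of either group, so few that separation is easily met. The share of all genes separated in this way was not computed, so nothing is read from these counts. For OAS1 the values were 66.6 and 97.7 CPM against 46.9 and 59.9 CPM in code C1, and 110.8 and 456.2 CPM against 31.9 CPM in code C4. In code C4 the library at 456.2 CPM was of pool 2, and those at 110.8 and 31.9 CPM were of pool 1. In code C3, which holds 3 of the 4 highest libraries, HHD replicate 5 had 71.5 CPM of OAS1 while HHD+S replicate 5 had 434.5 CPM and the 2 WD+S libraries 249.3 and 482.8 CPM. HHD replicate 5, the only HHD library of code C3, and HHD replicate 3, in code C1, carried both XIST and Y-linked reads. WD+S exceeded HHD in 3 of 3 codes for OAS1, MX1 and PARP14 and in 2 of 3 for OAS2 and XAF1. These codes held 2 or 3 WD+S and 1 or 2 HHD libraries, and the share over all genes was again not computed. With the code as a term in the fit, a setting added after the data had been seen, the HHD+S minus HHD log2 fold changes lay between 0.96 for PARP14 and 1.68 for XAF1, and the WD+S minus HHD values between 1.50 for PARP14 and 1.90 for XAF1.

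**Figure D3:**
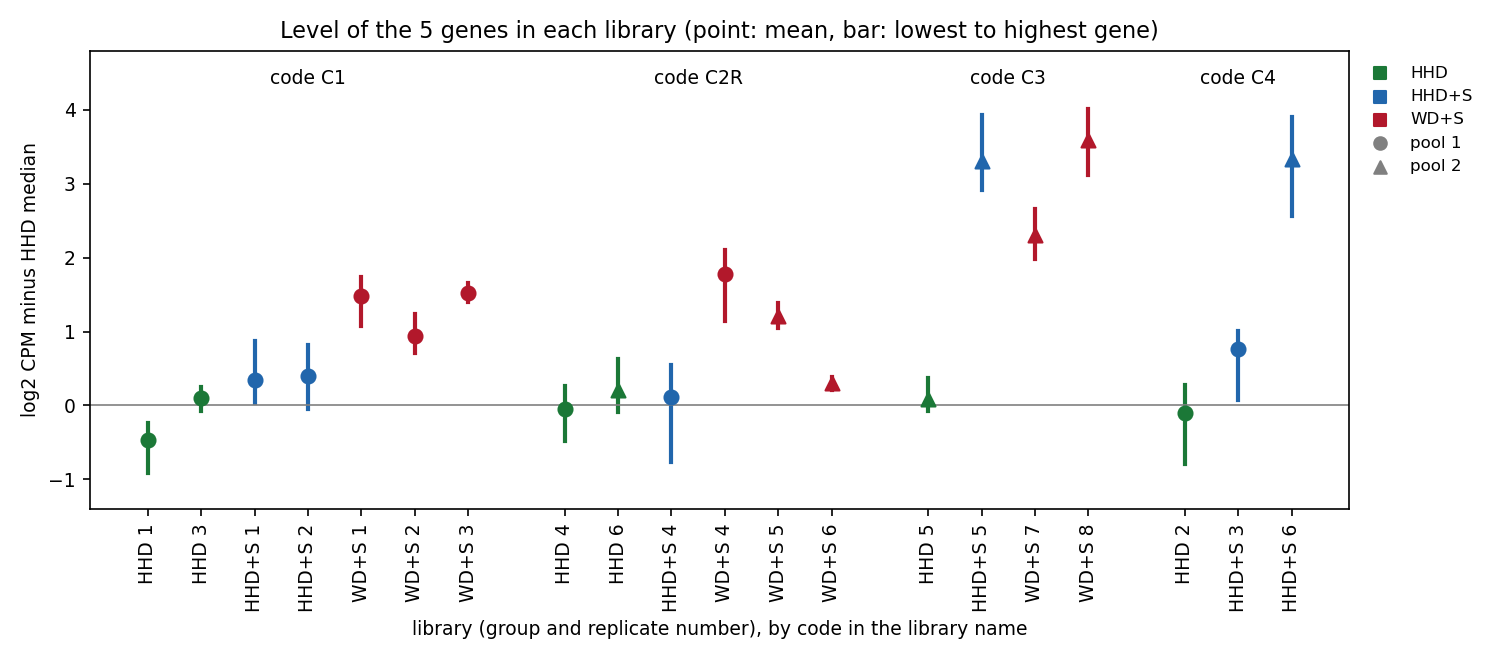
Log2 CPM of the 5 genes minus their HHD median in each library (point for the mean over the genes, bar from the lowest to the highest gene), arranged by the code in the library name, with colour for the group and shape for the pool. HHD libraries are centred on 0 because their own median is subtracted, and codes C3 and C4 hold 1 HHD library each. The 4 highest libraries carry codes C3 and C4.

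Single libraries set part of the size. Without WD+S replicate 8 the WD+S minus HHD log2 fold changes were 1.50 for OAS1, 1.55 for OAS2, 1.44 for MX1, 1.67 for XAF1 and 1.30 for PARP14. Leaving out HHD+S replicate 6 brought the HHD+S minus HHD value to 1.56 for OAS1, 1.83 for OAS2 and 1.46 for MX1, and leaving out HHD+S replicate 5 brought it to 2.00 for XAF1 and 0.98 for PARP14. Limma-voom, which gave libraries unequal weights, put the HHD+S minus HHD values at 1.29 for OAS1, 1.46 for OAS2, 1.17 for MX1, 1.59 for XAF1 and 0.79 (SE 0.63) for PARP14. With the pool as a term in the fit they were 1.62, 1.75, 1.42, 1.88 and 1.12 in the same order. For these 2 contrasts, in the 20 fits that each left out 1 library, the sign was positive for every member. Some of these fits left out a library of the group outside the contrast. Those kept both contrasted groups whole, so their sign was bound to hold.

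Some markers of other cells stood at their highest or lowest in the 3 libraries highest for the members. The summed CPM of 14 T and natural killer cell markers, of which KLRD1 was at 0 in all libraries, was highest in HHD+S replicate 6 (579.8 CPM), HHD+S replicate 5 (419.2 CPM) and WD+S replicate 8 (258.3 CPM), and at most 149.7 CPM elsewhere. Those 3 libraries also led for all 5 members. WD+S replicate 7, the next for every member, had a sum of 138.6 CPM, inside the HHD range. The T and natural killer sum ranged from 98.4 to 146.6 CPM in HHD, 106.3 to 579.8 CPM in HHD+S and 93.6 to 258.3 CPM in WD+S, and the 5 tested markers all had a higher mean in HHD+S than in HHD, with a median log2 fold change of 1.73. In pool 1, where the HHD+S sum was 106.3 to 149.7 CPM and the HHD sum 98.4 to 146.6 CPM, these groups overlapped for OAS2, MX1 and PARP14 and not for OAS1 and XAF1, as for 1.52% of genes. Pool 1 was not even in all cell markers. Its summed fibroblast markers were 14540 to 21474 CPM in HHD+S and 24641 to 30275 CPM in HHD, without overlap.

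The summed CPM of the 6 fibroblast markers was lowest in the same 3 libraries, at 8169, 9690 and 11403 CPM in HHD+S replicate 6, WD+S replicate 8 and HHD+S replicate 5. Over groups it ranged from 21160 to 30280 CPM in HHD, 8169 to 21470 CPM in HHD+S and 9690 to 26080 CPM in WD+S. WD+S replicate 7, the next library for the members, was at 14813 CPM, below the HHD range. Macrophage marker sums were 1012 to 4149 CPM in HHD, 1119 to 4893 CPM in HHD+S and 578.6 to 3060 CPM in WD+S. The 3 libraries that led for the members ranked 1, 3 and 5 of 20 for this sum, with HHD+S replicate 6 at 4893 CPM, HHD+S replicate 5 at 3209 CPM and WD+S replicate 8 at 2579 CPM. HHD replicate 2 ranked 2 at 4149 CPM, and WD+S replicate 7 ranked 14 at 1624 CPM. Plasmacytoid dendritic cell markers, from a cell type known as a rich source of type I interferon, summed to 128.1 to 238.5 CPM in HHD, 152.2 to 225.3 CPM in HHD+S and 174.5 to 206.6 CPM in WD+S. Of the 6 listed, 2 were in the exon read table, 3 in the second table alone, and 1 passed the count filter. GZMB is also in the T and natural killer list. An even sum therefore does not show an even number of plasmacytoid cells. Cardiomyocyte markers summed to 92.4 to 1072 CPM in HHD, 40.0 to 1403 CPM in HHD+S and 328.6 to 5676 CPM in WD+S, and the library at 5676 CPM, WD+S replicate 5, stood 1.20 above the HHD median for the members. Neural markers summed to 304.6 to 722.2 CPM in HHD, 320.8 to 959.8 CPM in HHD+S and 414.9 to 1422 CPM in WD+S. All 5 tested were higher in WD+S than in HHD at an unadjusted edgeR p below 0.05, with a median log2 fold change of 0.96. Over all 11366 genes, 859 were higher and 440 lower at that level, and 0 of the 5 had an adjusted p below 0.05. All 6 tested mesothelial markers had negative log2 fold changes against HHD, with medians of -1.12 in HHD+S and -1.66 in WD+S. Erythroid markers summed to 262.2 to 647.7 CPM in HHD and were lowest in HHD+S replicates 5 and 6, at 14.7 and 69.7 CPM, while WD+S replicate 8 had 645.5 CPM. The part of these cell markers in the levels of the 5 genes was not tested.

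**Figure D4:**
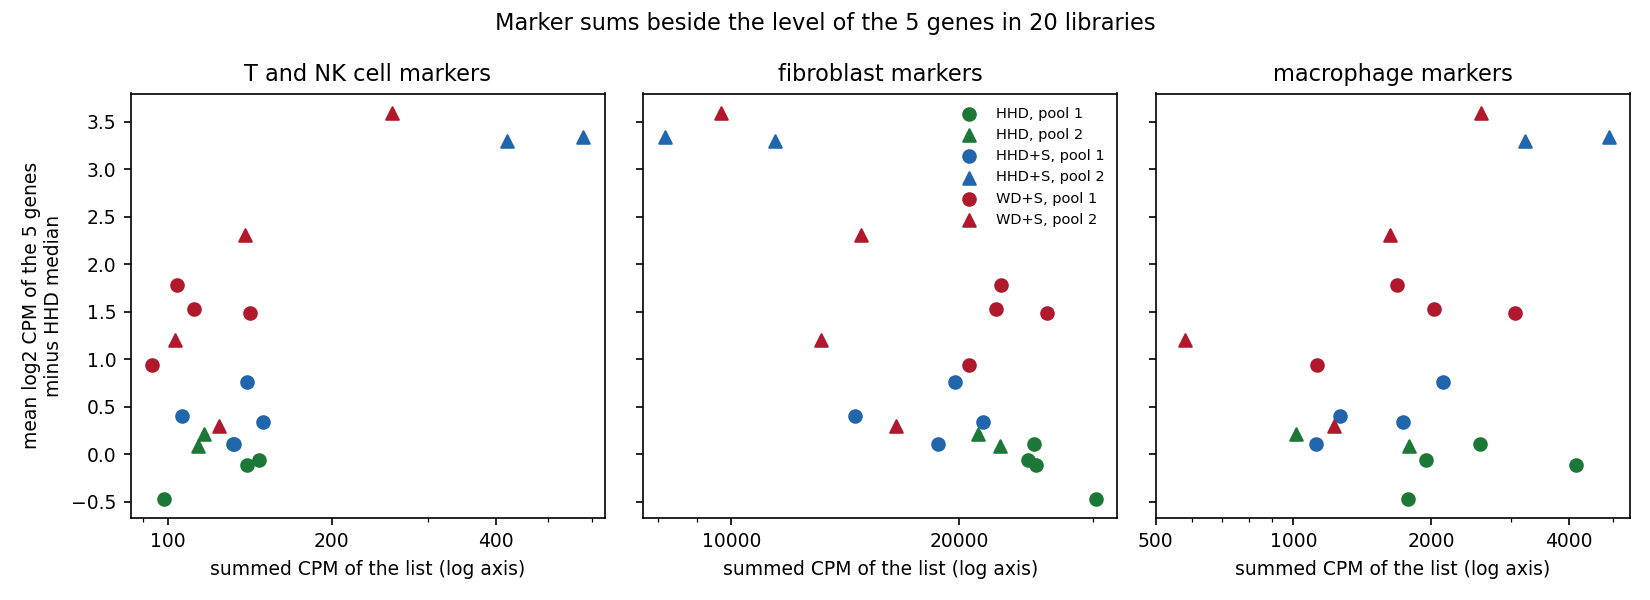
Mean log2 CPM of the 5 genes minus the HHD median (y axis) beside the summed CPM of T and natural killer, fibroblast and macrophage marker lists (x axis, log scale) in 20 libraries. The 3 libraries highest on the y axis have the 3 highest T and natural killer sums and the 3 lowest fibroblast sums.

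The members tracked each other across libraries. Pearson's r of log2 CPM between pairs of members ran from 0.91 (OAS1 with PARP14) to 0.98 (OAS2 with XAF1) over the 20 libraries, and Spearman's rho from 0.82 to 0.94. Without the 2 libraries farthest from the median, r ran from 0.86 to 0.97. Within the 6 HHD libraries, r ran from -0.16 (OAS1 with MX1) to 0.84 (OAS2 with XAF1). All pairs share the same libraries and group differences, so these values describe this set of samples and carry no p.

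Ranked by mean r with the 5 members, the 10 most alike of the 11361 other tested genes were CMPK2, RIG-I, UBE2L6, IFIT3, IFI44, IFIT1, UBA7, DHX58, TRIM5 and IFIH1. Their mean r ran from 0.97 for CMPK2 to 0.96 for IFIH1, against a median of 0.02 over the other genes, and 85 genes were above 0.8. Within the 6 HHD libraries the mean r of these 10 genes ran from -0.58 for IFIT1 and -0.20 for RIG-I to 0.63 for UBA7. RIG-I, IFIH1 and DHX58 are the cytosolic sensors or regulators of viral RNA, and UBA7 and UBE2L6 are the activating and conjugating enzymes for the ubiquitin-like protein ISG15. CMPK2 is a mitochondrial nucleotide kinase and TRIM5 restricts retroviral capsids. UBE2L6, for example, averaged 31.6 ± 5.77 CPM in HHD, 114.2 ± 116.7 CPM in HHD+S and 90.1 ± 75.2 CPM in WD+S.

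To compare levels between genes, the authors' RPKM values, which divide by transcript length, are needed. In HHD, OAS1 averaged 63.4 ± 14.7 RPKM, MX1 37.5 ± 7.42, OAS2 18.2 ± 5.83, XAF1 11.3 ± 2.21 and PARP14 2.67 ± 0.74 RPKM (SD, n = 6). In WD+S the same genes averaged 233.2 ± 151.2, 154.0 ± 142.8, 79.7 ± 75.3, 54.6 ± 51.3 and 8.36 ± 6.37 RPKM (SD, n = 8). The order OAS1, MX1, OAS2, XAF1, PARP14 held in 19 of 20 libraries, and in HHD replicate 2 MX1 was above OAS1. Read numbers behind the levels ran from 16 exon reads for PARP14 in HHD+S replicate 4 to 4463 for MX1 in WD+S replicate 8. The second table counted more reads for OAS1 (a median of 2.09 times the exon reads of the first), OAS2 (1.54 times), PARP14 (1.52 times) and MX1 (1.34 times), and as many for XAF1 (1.00 times). Its HHD+S minus HHD log2 fold changes were 1.94 for OAS1, 2.34 for OAS2, 1.99 for MX1, 2.52 for XAF1 and 1.62 for PARP14.

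The partners of each member in its own pathway were followed through lists of 121 companion genes, of which 80 were in the exon read table and 74 were tested. edgeR called 0 of the 74 in each of the 3 comparisons. At an unadjusted p below 0.05, 37 were higher and 1 lower in HHD+S than in HHD, 29 were higher and 0 lower in WD+S than in HHD, and 0 were higher and 1 lower in WD+S than in HHD+S. The 38 of HHD+S against HHD became 22 without HHD+S replicate 6, 23 without HHD+S replicate 5, 9 with limma-voom and 9 in pool 1 alone. Over all 11366 genes the numbers higher and lower at an unadjusted p below 0.05 were 536 and 424, 859 and 440, and 671 and 317 in the 3 comparisons. DESeq2 called RSAD2 and CXCL10 in HHD+S against HHD and RSAD2, DDX60 and HERC5 in WD+S against HHD. The median log2 fold changes of the companions were 0.60, 0.47 and -0.07 in the 3 comparisons, and over all genes -0.01, -0.02 and -0.01. The lists were drawn up with earlier results of these libraries known.

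Of the genes listed with the OAS pair, ABCE1, a ribosome recycling factor, had an HHD+S minus HHD log2 fold change of -0.23 (SE 0.13). OASL, an OAS relative without synthetase activity in humans, was too low to be tested, at 0.17 ± 0.13 CPM in HHD, 2.32 ± 3.30 CPM in HHD+S and 1.93 ± 4.08 CPM in WD+S. Its means had the same order over the groups as those of OAS1 and OAS2. MX2, the neighbour and relative of MX1, averaged 18.0 ± 9.93, 55.3 ± 57.8 and 70.9 ± 41.3 CPM in HHD, HHD+S and WD+S, with log2 fold changes against HHD of 1.62 (SE 0.60) and 1.98 (SE 0.57).

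In the PARP family, 13 genes were tested, 0 were called and 3 had an unadjusted p below 0.05 in HHD+S against HHD, all higher, beside 536 higher and 424 lower of all 11366 genes. PARP12 had a log2 fold change of 1.46 (SE 0.51), the ubiquitin ligase DTX3L 1.24 (SE 0.47) and its partner PARP9 0.82 (SE 0.32). PARP1, the main DNA damage responder of the family, was at 0.09 (SE 0.10), and TIPARP, a target of the aryl hydrocarbon receptor, at -0.50 (SE 0.25). ZC3HAV1, the zinc finger antiviral protein, was counted in the second table alone, with a log2 fold change of 0.29 (SE 0.14). PARP9, DTX3L and PARP12 are known as interferon-responsive genes.

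Among the partners of XAF1, 9 were tested. XIAP, which XAF1 binds, was at 4.60 ± 3.83 CPM in HHD with a log2 fold change of -0.35 (SE 0.59) in HHD+S. The second table put it at 105.6 ± 25.2 CPM in HHD (SD, n = 6), with a log2 fold change of -0.06 (SE 0.13). IRF1, a transcription factor reported to act on XAF1, was at 1.50 (SE 0.51), HTRA2 at 0.26 (SE 0.15) and CASP9 at -0.20 (SE 0.15). The median of the 9 was 0.08, beside 2.55 for XAF1 itself.

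Upstream of the members lie the ligands, receptors, kinases and transcription factors of interferon signalling. Among the transcription factors the HHD+S minus HHD log2 fold change was 1.17 (SE 0.39) for IRF9, 1.57 (SE 0.72) for IRF7 and 0.61 (SE 0.35) for STAT2. Against HHD, WD+S gave 0.93 for IRF9, 1.25 for IRF7 and 0.52 for STAT2. In HHD+S against HHD, the receptor and kinase genes in the exon read table lay between -0.13 (JAK2) and 0.02 (IFNGR1). For the same contrast in the second table, IFNAR1 was at -0.19 (SE 0.11) and IFNAR2 at -0.30 (SE 0.16). In WD+S against HHD, the receptor and kinase genes in the exon read table lay between -0.10 (TYK2) and 0.31 (JAK1). Receptor mRNA averaged 230.9 ± 40.4 CPM for IFNAR1 and 51.9 ± 17.8 CPM for IFNAR2 in HHD on the second table's scale. USP18 was matched in neither table.

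Interferon mRNAs themselves were at the edge of detection in all groups. Over the 20 libraries of the second table, IFNB1, IFNE and IFNL3 had 0 reads, IFNK and IFNW1 1 read each, IFNA1 42 reads, IFNL1 63 reads and IFNG 21 reads. IFNG had its most reads, 8, in HHD+S replicate 5, and IFNA1 had at most 5 in a library. IFNL1 averaged 0.50 ± 0.28 CPM in HHD, 0.86 ± 0.54 CPM in HHD+S and 0.94 ± 0.48 CPM in WD+S on the second table's scale. IFNG averaged 0.14 ± 0.15, 0.61 ± 0.87 and 0.09 ± 0.13 CPM in the same groups. No ligand had enough reads to be tested.

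The sensors of viral RNA and the remaining interferon-stimulated genes were followed in the same way. Of 9 sensors matched by their listed symbols and tested, 5 had an unadjusted p below 0.05 in HHD+S against HHD, all higher, with DHX58 at 1.97 (SE 0.59), ZBP1 at 1.72 (SE 0.59), IFIH1 at 1.15 (SE 0.39) and TMEM173, the gene of STING, at 0.59 (SE 0.20). RIG-I, another sensor, stood in the exon read table under a name outside the list and had a log2 fold change of 1.82 (SE 0.55). Of 28 other interferon-stimulated genes, 23 were higher at that level in HHD+S and 19 in WD+S, beside 536 and 859 of all 11366 genes. Among them RSAD2 had a log2 fold change of 3.80 (SE 0.88), IFIT3 2.04 (SE 0.56) and GBP1 3.43 (SE 0.93) in HHD+S against HHD. The member values of 1.59 to 2.55 fell inside the range of this list and above its median.

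**Figure D5:**
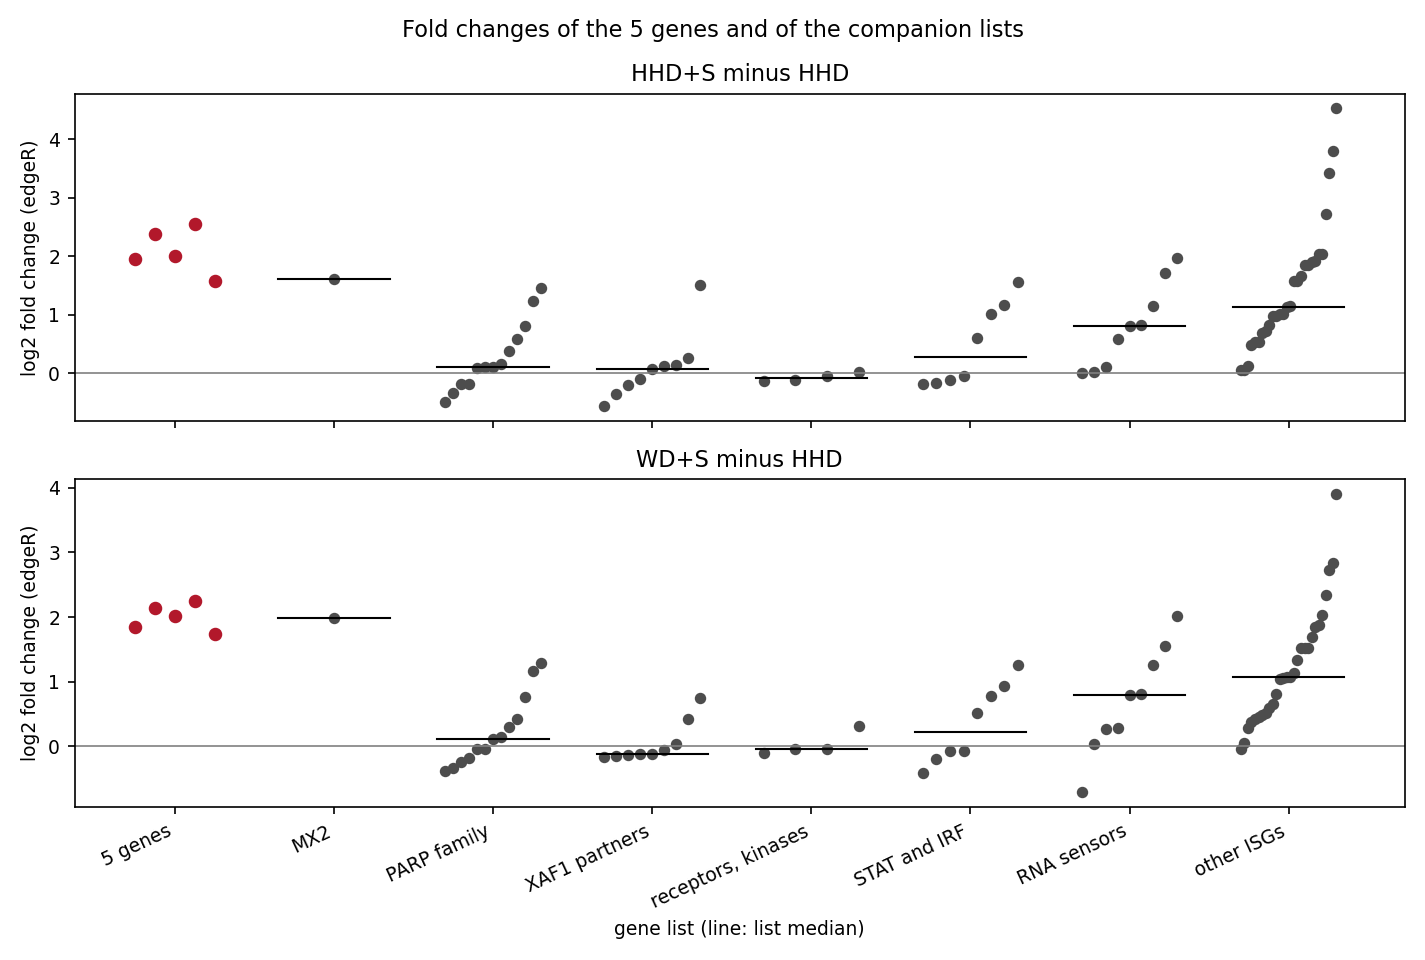
Log2 fold change of the 5 genes (red) and of each tested gene of the companion lists shown (grey, line at the list median) for HHD+S minus HHD and WD+S minus HHD. Receptor and kinase genes sit near 0, PARP and XAF1 partner lists are centred near 0 with a few genes higher, and the other interferon-stimulated genes (ISGs) reach from about 0 to the highest values.

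Gene order was read from the RefSeq annotation of Sscrofa11.1, a later assembly than the one the reads were aligned to, so only the order is used. OAS2 and OAS1 are next to each other, and MX2 lies beside MX1. The genes around the OAS pair had HHD+S minus HHD log2 fold changes of 0.11 (TPCN1), -0.13 (RPH3A) and -0.18 (PTPN11). DTX3L and PARP9 lie close after PARP14, and HSPBAP1, on its other side, was at 0.28. Near XAF1, FBXO39 was at 1.07 (SE 0.49) in HHD+S and 1.23 (SE 0.46) in WD+S against HHD, and MED31 at 0.21. These neighbours were named for their position, outside the rule for named genes. The library kit does not mark strand, so reads where such neighbours overlap cannot be told apart, and reads shared by OAS1 and OAS2 or by MX1 and MX2 could be split in a way that the sources used here do not describe.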

How the data were processed

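RNA of 20 epicardial fat samples was sequenced from TruSeq RNA v2 libraries, a kit that does not mark strand, per the labels' protocols. Reads were demultiplexed with bcl2fastq 2.17.1.14 and the build was Sscrofa10.2, per the submitters' processing notes. The aligner and counting tool: not given in the sources used here. Per the file headers, the authors deposited whole-number counts of unique exon reads per gene in 1 table and unique gene reads with RPKM in a second, RefSeq-based table. The deposited RPKM values, scaled by the authors to gene length and library total, were used for the order of genes only.

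From the counts, R 4.3.3 with edgeR 4.0.16 gave TMM-scaled CPM and 1 quasi-likelihood fit of all 20 libraries, without covariates, over the 11366 genes kept by filterByExpr (minimum count 10, total 15), with Benjamini-Hochberg adjustment and a threshold of 0.05. DESeq2 1.42.0, limma 3.58.1 voom, other scaling, no filter, covariates, single pools, the second table (6685 genes) and leaving out each library were alternatives. The fit was tested on simulated data. A prior count of 2 was used for log2 CPM in the correlations. Of 6101 rows named by ID alone, 890 were given a symbol. Libraries of 1 group differed by 7.66 to 36.7 chi-square units per gene, so none was a copy of another in its group. Replicates are numbered in accession order and pair nothing.

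The members and all lists were chosen with earlier results of these data known. Named genes were the members, up to 4 of each companion list with the smallest p in HHD+S against HHD plus a set of pathway genes, and the 10 genes most correlated with the members. Some genes under this rule are not reported here. Depth was 2749337 to 6543337 exon reads per library, so genes near 1 CPM rest on a few reads. No sequences are printed, since no genome of the build was used here.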

Additional observations from a re-analysis of the deposited data

Results flagged for a closer look

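In WD+S, replicate 8 stood apart from the other 7 libraries for all 5 genes, by a gap to its nearest neighbour that took up more than the share of the group's range set by Dixon's 95% limit. It had 482.8 CPM of OAS1, with the next library at 249.3 CPM, and 626.6 CPM of OAS2, with the next at 215.4 CPM. For MX1 the values were 969.3 and 373.0 CPM, for XAF1 197.6 and 76.7 CPM, and for PARP14 91.0 and 40.1 CPM. In each case the next library was WD+S replicate 7. The gaps were measured on CPM and not on the log2 scale, which draws high values closer together. On the log2 scale, averaged over the 5 genes, replicate 8 stood 3.60 above the HHD median, replicate 7 2.31 and replicate 6, the lowest, 0.30. The limit was not applied on that scale. The 15 combinations of gene and group were examined and 5 were picked out, all the same library. Chance picks out about 1 in 20 such groups if values are normally distributed, which CPM values with a long upper tail need not be. The 5 genes are also not independent of each other. In HHD+S no library was picked out, since replicates 5 and 6 stood high together.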

How the results depend on the processing

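The sign of the 5 members' log2 fold changes was kept in 160 of 160 recomputed values for HHD+S against HHD and in 160 of 160 for WD+S against HHD, and in 127 of 160 for WD+S against HHD+S, where values ran from -1.20 to 1.26. Part of these values came from leaving out a library of the group outside the contrast, which could hardly change a sign. In HHD+S against HHD, pool 1 alone moved all 5 members and pool 2 alone moved MX1 by more than their spread. Counts of called genes moved with the tool. DESeq2 called 10 genes in HHD+S against HHD, 69 in WD+S against HHD and 10 in WD+S against HHD+S, where edgeR called 0, and 2, 3 and 0 of the companions. Limma-voom called 4 genes in WD+S against HHD+S. A fit of the 2 groups alone called 1 gene in WD+S against HHD, which was 1 companion, and 1 in WD+S against HHD+S. Pool 1 alone called 14 genes and 7 companions in WD+S against HHD, and 1 gene, 1 companion, in WD+S against HHD+S. Leaving out 1 library gave 0 calls throughout in HHD+S against HHD, 0 to 22 in WD+S against HHD (22 without WD+S replicate 1) and 0 to 1 in WD+S against HHD+S (1 without HHD+S replicate 2). The cause was not tested. The code of the library name as a covariate was added after the data were seen. No paired analysis was possible because the labels give the groups no shared replicate numbers. Depth limits OASL and the interferon genes, and pool 2 holds 2 libraries each of HHD and HHD+S.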
